A study of Rattus norvegicus with 24 samples.

Results

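The comparison concerned the left kidneys of 6 rats given conditioned medium (CoCM) and of 6 untreated rats (Ctrl), which were 12 of the 24 animals of the series and were chosen by the treatment named in the sample labels. All were male PKD/Mhm (Cy/+) rats aged 8 months, heterozygous for a missense change in Anks6 that leads to cystic kidneys, so cystic disease was present in both groups and no non-cystic kidney entered the comparison. CoCM was culture supernatant from ABCB5+ stromal cells of human skin grown with macrophages made from the human THP-1 line and stimulated with interferon gamma and lipopolysaccharide, and it was given once a month for 6 months. The sources differ on whether the medium was injected into the peritoneum or into a vein. The other 12 animals of the series were given the ABCB5+ cells themselves, 6 into the peritoneum and 6 into a vein. They were fitted together with the 12 compared animals, so they entered the gene filter, the scaling and the spread used by the test. No vehicle injection was described for Ctrl, so the injection, the plain medium and what the cells released into it cannot be told apart. Ctrl animals carried the numbers 1, 12, 18, 22, 23 and 24 and CoCM animals the numbers 26, 27, 34, 35, 39 and 40, so the order of the animals cannot be told apart from treatment either.

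In a cystic kidney the tubule epithelium loses differentiated transport functions, divides and secretes fluid, while the tissue between the cysts fills with fibroblasts, matrix and immune cells. Differentiated tubule cells depend on mitochondrial respiration and fatty acid oxidation, and cystic epithelium is known for a shift towards glycolysis. Medium conditioned by stromal cells carries secreted proteins and vesicles but no cells.

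Whole-kidney RNA was sequenced, and 12778 of 17334 genes had enough counts to be tested. Total counts lay between 9759947 and 13192221 in CoCM and between 10405757 and 14125457 in Ctrl (exact permutation p = 0.110, two-sided). Levels are given in CPM, which relates a gene's count to the library total after TMM scaling, and differences as log2 fold changes of CoCM over Ctrl with their standard errors. The tissue carried its defining markers in all 12 libraries. Umod of the thick ascending limb ranged from 1067 to 6702 CPM, Slc34a1 of the proximal tubule from 673 to 5175 CPM and Aqp2 of the collecting duct from 244 to 629 CPM. Animal CoCM 39 stood apart from the other 11 of these animals before any comparison. On the main component of the 12 libraries, which held 52.2% of the variance, it scored 108.6 and the other 11 animals scored from −46.4 to 24.6. It held the highest or the lowest level of the 12 animals in 51.5% of genes, where the other animals did so in 4.67% to 21.6%. Results are therefore given with and without it. In whole tissue, fewer cells of a type and less RNA per cell cannot be told apart.

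The proximal promoters of 4 genes on which the results turn are shown first. Ovca2 was the 1 gene to pass the test, Klhl26 and Fam217b were among the genes with the smallest p-values above and below the control range, and Pkd2 is the cystic disease gene whose CoCM levels all lay below Ctrl. Each stretch runs from 250 bases before to 50 bases after the annotated start, is read 5′ to 3′ on the gene's strand and comes from RefSeq, assembly GRCr8. Capitals mark a GC box (GGGCGG or CCGCCC) or a CCAAT box (CCAAT or ATTGG).
Ovca2 (chr10:60527498-60527797, minus strand): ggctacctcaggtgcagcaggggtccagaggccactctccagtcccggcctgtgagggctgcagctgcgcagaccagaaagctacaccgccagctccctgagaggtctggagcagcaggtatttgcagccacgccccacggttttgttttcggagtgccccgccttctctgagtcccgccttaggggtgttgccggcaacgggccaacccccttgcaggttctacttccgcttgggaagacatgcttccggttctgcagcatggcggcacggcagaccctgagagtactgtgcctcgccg
Klhl26 (chr16:18985957-18986256, plus strand): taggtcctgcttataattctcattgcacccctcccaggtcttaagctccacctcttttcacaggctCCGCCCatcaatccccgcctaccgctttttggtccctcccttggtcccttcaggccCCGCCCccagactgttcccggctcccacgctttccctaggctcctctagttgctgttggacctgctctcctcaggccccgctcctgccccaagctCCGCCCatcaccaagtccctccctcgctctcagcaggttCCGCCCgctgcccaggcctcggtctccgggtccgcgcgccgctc
Fam217b (chr3:185884910-185885209, plus strand): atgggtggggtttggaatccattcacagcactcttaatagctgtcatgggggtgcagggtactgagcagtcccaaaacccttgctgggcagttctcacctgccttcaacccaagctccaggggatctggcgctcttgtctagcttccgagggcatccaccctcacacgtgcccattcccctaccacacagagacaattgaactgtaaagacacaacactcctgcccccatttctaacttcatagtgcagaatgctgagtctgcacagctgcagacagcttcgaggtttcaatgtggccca
Pkd2 (chr14:5585091-5585390, minus strand): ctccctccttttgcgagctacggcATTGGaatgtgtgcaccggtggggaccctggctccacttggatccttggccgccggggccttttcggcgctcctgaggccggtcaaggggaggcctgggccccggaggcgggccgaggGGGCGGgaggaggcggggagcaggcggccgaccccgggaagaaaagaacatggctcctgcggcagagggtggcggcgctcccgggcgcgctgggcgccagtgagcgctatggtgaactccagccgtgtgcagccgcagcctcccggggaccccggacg
Klhl26 carried 4 GC boxes and Pkd2 carried 1 GC box and 1 CCAAT box, while neither motif occurred in the stretches of Ovca2 and Fam217b.

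Few genes left the control range in every treated animal, and most of them did so by a small amount. In 109 genes all 6 CoCM levels lay above the highest Ctrl level (0.853% of the genes tested), and in 67 genes all 6 lay below the lowest Ctrl level (0.524%). At least 5 of 6 CoCM animals lay above the range in 456 genes (3.57%) and below it in 385 genes (3.01%). The median log2 fold change of the 109 genes was 0.32, with a range from 0.070 to 1.23, and 84 of them lay under 0.5. The median of the 67 genes was −0.33, with a range from −1.25 to −0.10, and 44 of them were smaller than 0.5 in size. A change of more than 1 on the log2 scale was fitted for 9 genes above the range and 7 below it. By the edgeR quasi-likelihood test with Benjamini-Hochberg adjustment 1 gene of 12778 passed the threshold of 0.05 (0.00783%). This number depended on the method, with 0 calls when edgeR was fitted to the 12 compared samples, 78 with DESeq2, 183 with limma voom and 30 with edgeR without Ctrl 23. At an unadjusted p under 0.05 there were 761 genes higher (5.96%) and 762 lower (5.96%). Among them were 99 of the 109 and 58 of the 67. These genes were chosen on the same values, so their small p-values add no support.

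The gene that passed was Ovca2, which encodes a serine hydrolase. Its level was 27.98, 31.1 and 33.9 CPM in CoCM (lowest, median and highest) and 18.6, 20.5 and 24.1 CPM in Ctrl. All 6 CoCM animals lay above all 6 Ctrl animals, with animal 39 the highest and animal 40 the lowest of the treated group. The log2 fold change was 0.58 ± 0.090 (adjusted p = 0.0218, edgeR with Benjamini-Hochberg adjustment), and it was 0.55 without animal 39 (adjusted p = 0.0734). In the fit of the 12 samples its adjusted p was 0.136. Ovca2 overlaps Dph1 in the annotation, so reads of the pair could be shared and its level is uncertain.

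**Figure D1:**
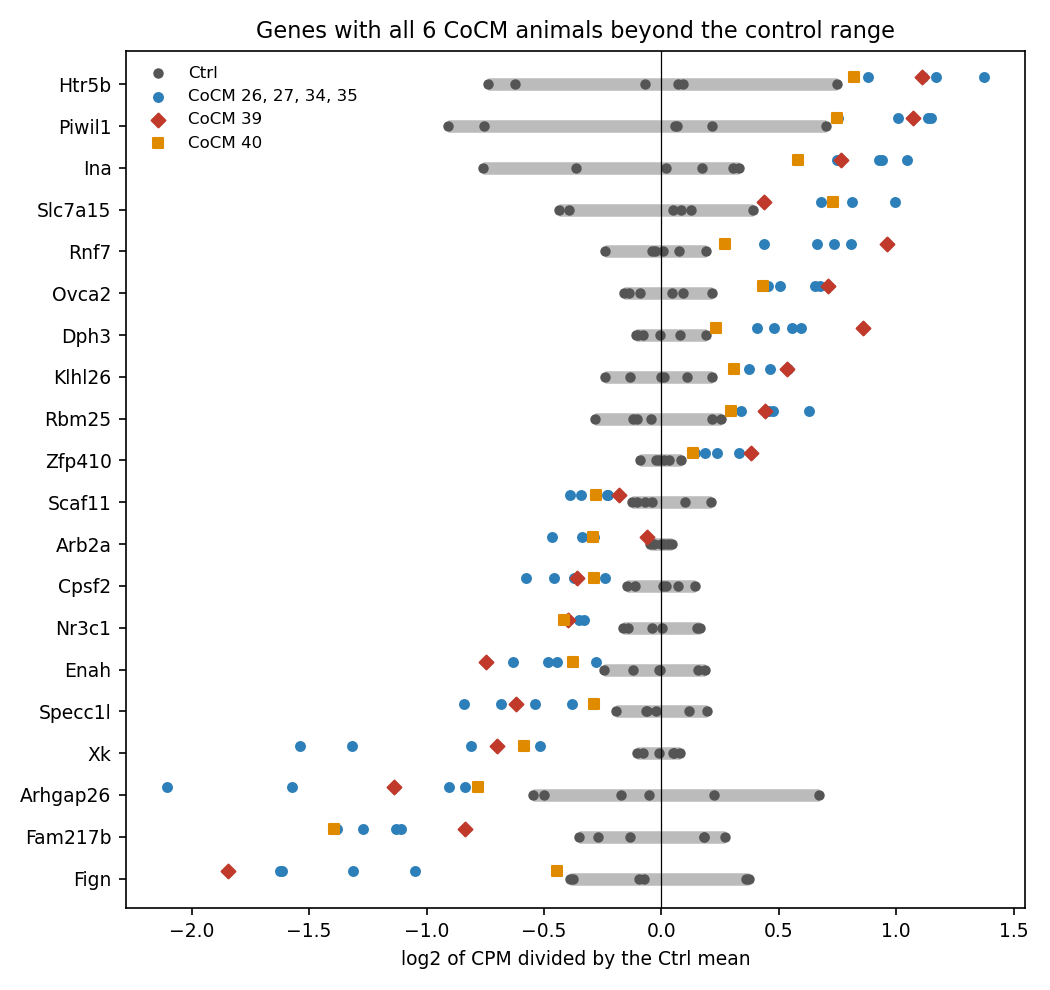
Levels of 20 genes whose 6 CoCM values lay beyond the range of Ctrl, as log2 of CPM divided by the Ctrl mean (horizontal axis), 1 point per animal and 1 line per gene. Grey points and bars are the 6 Ctrl animals and their range, blue points CoCM 26, 27, 34 and 35, the red diamond CoCM 39 and the orange square CoCM 40. Fign and Fam217b lay furthest below Ctrl and Htr5b and Piwil1 furthest above, and the animal nearest to the controls was often CoCM 40.

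Of the 9 other named genes above the control range, 5 had CoCM medians from 47.98 to 355 CPM. Rnf7, the RING subunit of cullin ubiquitin ligases, measured 79.3, 107 and 128 CPM in CoCM (lowest, median and highest) and 55.7, 65.3 and 75.1 CPM in Ctrl. The CoCM animals were spread over a wide interval, with animal 39 at the top and animal 40 nearest to Ctrl. The log2 fold change of Rnf7 was 0.66 ± 0.15 (adjusted p = 0.188, edgeR with Benjamini-Hochberg adjustment), and it was 0.60 without animal 39. Klhl26, a Kelch-domain protein of the family of cullin ligase adaptors, measured 42.05, 47.98 and 49.4 CPM in CoCM (lowest, median and highest) and 28.7, 34.02 and 39.4 CPM in Ctrl. The treated animals lay close together here, and the log2 fold change was 0.46 ± 0.090 with animal 39 and 0.45 without it. Rbm25, a splicing regulator, measured 319, 355 and 402 CPM in CoCM (lowest, median and highest) and 214, 248 and 310.4 CPM in Ctrl. Animal 27 was the highest and animal 40 the lowest of the CoCM animals, and the log2 fold change of 0.44 ± 0.11 was 0.45 without animal 39. Zfp410, a zinc finger transcription factor, measured 69.7, 73.5 and 82.6 CPM in CoCM (lowest, median and highest) and 59.5, 63.4 and 67.2 CPM in Ctrl. Its difference was small and steady, with a log2 fold change of 0.24 ± 0.054. Dph3, which takes part in the synthesis of diphthamide on elongation factor 2, had a log2 fold change of 0.53 ± 0.12 that was 0.46 without animal 39, and it overlaps Oxnad1.

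The other 4 named genes above the range had CoCM medians from 6.44 to 22.9 CPM. Htr5b, a serotonin receptor, measured 13.6, 16.7 and 19.97 CPM in CoCM (lowest, median and highest) and 4.62, 7.72 and 12.96 CPM in Ctrl. The highest Ctrl animal, number 23, came close to the lowest CoCM animal, number 40. The log2 fold change of Htr5b was 1.09 ± 0.22 and was 1.09 without animal 39. Piwil1, an Argonaute-family protein that binds small RNAs in germ cells, measured 18.7, 22.9 and 24.7 CPM in CoCM (lowest, median and highest) and 5.94, 11.6 and 18.1 CPM in Ctrl. Here too Ctrl 23 lay just under CoCM 40, and the log2 fold change was 0.99 ± 0.23. Ina, a neuronal intermediate filament protein whose gene overlaps Nt5c2, had a log2 fold change of 0.84 ± 0.18, and Slc7a15, of the amino acid transporter family, one of 0.70 ± 0.16. None of these 4 genes passed the test, with adjusted p-values from 0.149 to 0.202 (edgeR with Benjamini-Hochberg adjustment).

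The 10 named genes below the control range had log2 fold changes from −1.22 to −0.27. Fign, a microtubule-severing ATPase, measured 0.9104, 1.19 and 2.405 CPM in CoCM (lowest, median and highest) and 2.498, 3.08 and 4.24 CPM in Ctrl. Animal 39 was the lowest and animal 40 lay just under the lowest Ctrl animal, and the log2 fold change was −1.22 ± 0.32 with animal 39 and −1.13 without it. Specc1l, which links actin filaments and microtubules, measured 24.9, 29.8 and 36.6 CPM in CoCM (lowest, median and highest) and 38.98, 43.3 and 50.96 CPM in Ctrl. Animal 26 was the lowest and animal 40 the nearest to Ctrl, and the log2 fold change was −0.55 ± 0.13. Enah, which promotes the growth of actin filaments, measured 14.3, 17.5 and 19.9 CPM in CoCM (lowest, median and highest) and 20.4, 23.9 and 27.4 CPM in Ctrl. Its log2 fold change was −0.48 ± 0.14, and −0.44 without animal 39, which was the lowest of the 12. Arhgap26, a regulator of small GTPases that overlaps Fgf1 in the annotation, had a log2 fold change of −1.15 ± 0.33 at levels of 0.991 to 2.48 CPM in CoCM against 2.91 to 6.78 CPM in Ctrl.

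Nr3c1, the glucocorticoid receptor, measured 111, 112 and 118 CPM in CoCM (lowest, median and highest) and 132, 146 and 166 CPM in Ctrl. The 6 CoCM animals lay within a narrow band, and the log2 fold change of −0.38 ± 0.087 stayed at −0.38 without animal 39. Cpsf2, a subunit of the factor that cleaves and polyadenylates transcripts, had a log2 fold change of −0.38 ± 0.11 and overlaps Ndufb1. Scaf11, a factor related to splicing proteins, had one of −0.27 ± 0.075. Xk, a membrane protein known from the Kx blood group, ranged from 0.828 to 1.68 CPM in CoCM against 2.24 to 2.54 CPM in Ctrl. Fam217b measured 1.31, 1.504 and 1.93 CPM in CoCM (lowest, median and highest) and 2.702, 3.53 and 4.16 CPM in Ctrl, and its log2 fold change of −1.17 ± 0.24 was −1.24 without animal 39, which was the nearest to Ctrl. Arb2a had a log2 fold change of −0.29 ± 0.082, and animal 39 was again the nearest to Ctrl. The adjusted p-values of these 10 genes below the range lay between 0.149 and 0.2497 (edgeR with Benjamini-Hochberg adjustment).

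Among the 109 and the 67 genes were 8 and 7 of the 1003 function list genes tested, which is 0.798% and 0.698% and near the 0.853% and 0.524% of all genes, so the lists as a whole did not stand out by this count. Pkd2 encodes polycystin-2, the calcium-permeable channel mutated in a form of dominant polycystic disease. It measured 104, 122 and 129 CPM in CoCM (lowest, median and highest) and 135, 146 and 170.1 CPM in Ctrl. Animal 39 was the lowest and animal 35 the highest of the treated group, and both lay under Ctrl 23, the lowest control. The log2 fold change of Pkd2 was −0.32 ± 0.10 and was −0.28 without animal 39 (adjusted p = 0.2899, edgeR with Benjamini-Hochberg adjustment). Of the other 35 cystic disease genes tested, 20 had a positive and 15 a negative log2 fold change, with a median of 0.054. Kif3a, a motor of ciliary transport, lay below the range in 5 animals.

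Signalling genes with all 6 CoCM animals below the range included 3 with roles in innate signalling. Tab2, an adaptor of the kinase TAK1, ranged from 71.3 to 92.7 CPM in CoCM against 96.8 to 108 CPM in Ctrl. Its log2 fold change was −0.29 ± 0.083. Birc2, a ubiquitin ligase of TNF signalling, ranged from 38.3 to 44.3 CPM in CoCM against 44.6 to 50.3 CPM in Ctrl, and the gap between the groups was smaller than the spread within either. Ifih1, a cytosolic sensor of double-stranded RNA, had a log2 fold change of −0.46 ± 0.16. Bmf, a pro-apoptotic BH3-only protein, ranged from 13.4 to 20.6 CPM in CoCM against 22.996 to 28.6 CPM in Ctrl. Its log2 fold change was −0.58 ± 0.22. Fzd1, a Wnt receptor, had one of −0.30 ± 0.088, and Rasa1, which switches Ras off, one of −0.37 ± 0.14. Atf4, the transcription factor of the integrated stress response, lay above the range in all 6 animals, with 279.7 to 339 CPM in CoCM against 239 to 279 CPM in Ctrl and a log2 fold change of 0.20 ± 0.069. Adjusted p-values of these 7 genes ran from 0.2503 to 0.465 (edgeR with Benjamini-Hochberg adjustment).

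Animal 40, rather than animal 39, decided how many genes were beyond the range in all animals. Of the genes with exactly 5 CoCM animals beyond the range, 347 lay above and 318 below. Animal 40 was the one not beyond the range on that side in 219 of the 347 and in 216 of the 318, which was 65.4% of both taken as one set. In some of these genes it lay beyond the range on the opposite side. An example is Vcl, with 138 CPM in animal 40 against a highest Ctrl level of 121 CPM. Animal 39 was that one in 42 and 31 genes, or 11.0%. Animal 40 lay above the control range in 1618 genes and below it in 1635, the lowest numbers of the 6 treated animals in both directions, and animal 39 in 4012 and 3986, the highest. Leaving out a CoCM animal adds the genes in which it was the exception, so the next numbers restate these counts. Without animal 40 the remaining 5 animals lay above the range in 328 genes and below it in 283. Without animal 39 they did so in 151 and 98.

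**Figure D2:**
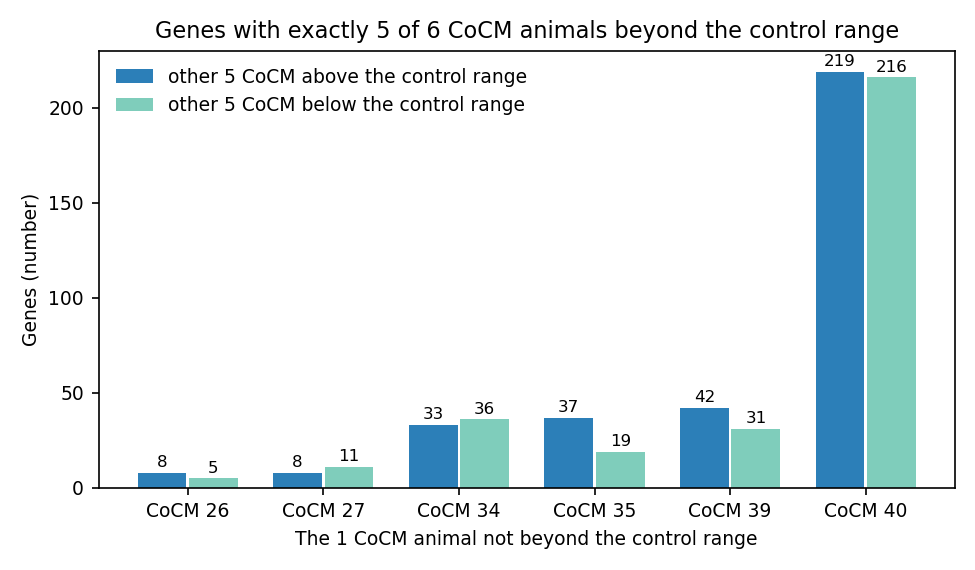
Number of genes (vertical axis) in which exactly 5 of the 6 CoCM animals lay beyond the control range, by the 1 animal that did not (horizontal axis). Dark bars are genes with the other 5 above and pale bars genes with the other 5 below the range; CoCM 40 was that animal in 219 and 216 genes, and no other animal in more than 42.

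The genes separated with animal 39 are, by the way they were counted, also separated without it, and their size depended little on it. Among the 109 genes above the range, the median log2 fold change was 0.29 without it, and 4 genes moved by more than 25% of their value. Among the 67 below, the median was −0.33 in both fits and 2 genes moved that far. Animal 39 was the treated animal furthest from Ctrl in 49 of the 109 and 26 of the 67. Over all genes the picture differed. A fitted log2 fold change beyond 0.5 in either direction was found in 1432 genes, and in 477 of these the size was no longer beyond 0.5 when animal 39 was left out. The total without it was 1221, and 16 of the 1432 changed sign. Without animal 40 the total was 2134. Animal 39 lay more than 2-fold below all 11 other animals in 1134 genes and more than 2-fold above them in 73, where no other animal did so in more than 20 and 17. The fitted fold change compares group means, in which an animal near 0 among 6 can lower the log2 mean by at most 0.26, so the low genes of animal 39 are muted in it. With differences between means of log2 CPM, a measure added after the data were seen, 1744 genes exceeded 0.5, and 928 of these (53.2%) did so in the same direction without animal 39. Without animal 40, 1702 (97.6%) did.

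**Figure D3:**
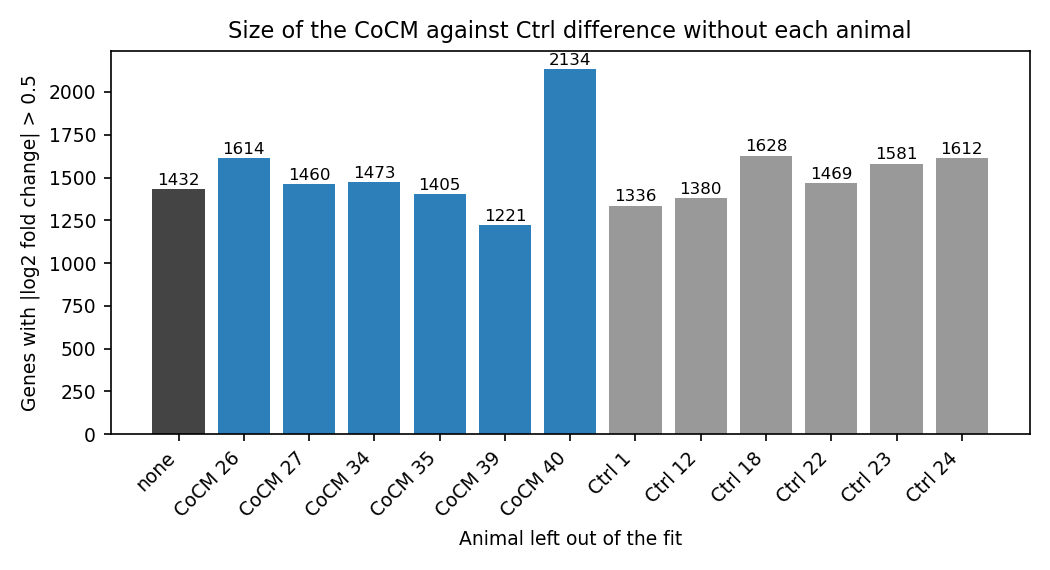
Number of genes with a fitted log2 fold change of CoCM over Ctrl beyond 0.5 in either direction (vertical axis), in the fit of all animals and in fits that each left out 1 animal (horizontal axis). The dark bar is the fit with no animal left out (1432 genes), blue bars leave out a CoCM animal and grey bars a Ctrl animal; the number was lowest without CoCM 39 (1221) and highest without CoCM 40 (2134).

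Some genes were beyond the range in 5 animals with animal 39 the exception. Vof16 lay above the range in the other 5, which measured from 18.1 to 21.5 CPM, while animal 39 measured 14.9 CPM, just under the highest Ctrl value of 15.1 CPM. Its log2 fold change was 0.94 ± 0.23 and was 1.002 without animal 39. Dalrd3, which acts in tRNA modification, followed the same course, with a log2 fold change of 0.24 ± 0.058 that was 0.27 without animal 39. Zfp513 had one of 0.33 ± 0.091. In the other direction Nfatc2ip had a log2 fold change of −0.39 ± 0.17 and −0.55 without animal 39, whose 4.89 CPM exceeded every control. Np4, a defensin of neutrophils, had one of −0.81 ± 0.27 and −0.94 without it. Zfp709 and Pdzd8, a lipid-transfer protein of the endoplasmic reticulum, had −0.39 ± 0.14 and −0.28 ± 0.10. Without animal 39 no gene passed the test (0.0%, edgeR with Benjamini-Hochberg adjustment), while 684 genes were higher (5.35%) and 843 lower (6.6%) at an unadjusted p under 0.05.

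The genes whose fold changes moved most on leaving out animal 39 show what it carried. Cyp2c11, a male-specific cytochrome P450 of the rat, measured 86.5 CPM in animal 39, from 0.947 to 33.04 CPM in the other CoCM animals and from 0.0664 to 11.3 CPM in Ctrl. Its log2 fold change was 2.68 ± 1.25 and was 1.58 without animal 39. Cyp1a1, the inducible P450 of the aryl hydrocarbon receptor, gave 1.86 ± 1.37 and 0.79. For Klk1c9, a kallikrein, animal 39 measured 60.7 CPM against at most 11.6 CPM in the other 11 animals, and the log2 fold change of 1.38 ± 0.90 was 0.12 without it. Tex101 gave 1.32 ± 0.93 and 0.22, and Sphkap, an anchoring protein of protein kinase A, turned from 0.69 ± 0.89 to −0.91.

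Among the genes that moved most the other way were a marker of fibroblasts, a marker of B cells and an attractant of lymphocytes. Postn, a matrix protein of activated fibroblasts, measured 0.114 CPM in animal 39 and from 12.5 to 53.4 CPM in the other CoCM animals, within the Ctrl interval of 15.2 to 123 CPM but for animal 35. Cd79b, part of the B cell receptor complex, measured 0 CPM in animal 39, where a floor of 3 counts is 0.307 CPM in the smallest of the 12 libraries, and at least 6.45 CPM in the other CoCM animals. Ccl19, a chemokine that attracts lymphocytes, measured 3.07 CPM in animal 39 and at least 70.4 CPM in the others. The log2 fold change of Postn was −0.86 ± 0.89 and −0.60 without animal 39, and those of Cd79b, Ccl19 and Siglec10 lay between 0.021 and 0.30 with it. No gene of either set passed the test.

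Of the 29 function lists, mitochondrial ribosomal proteins had the most genes above the control range. Of 59 mitochondrial ribosomal protein genes tested, 4 had all 6 CoCM animals above the range and 15 had at least 5, against 0.853% and 3.57% of all genes. All 59 had a positive log2 fold change, with a median of 0.25 beside 0.009 over all genes tested. An unadjusted p under 0.05 was found in 12, where 5.96% of all genes were higher at that threshold. Mrpl21 measured 20.8, 23.5 and 25.9 CPM in CoCM (lowest, median and highest) and 14.6, 17.99 and 19.5 CPM in Ctrl. The groups did not overlap, and the log2 fold change was 0.42 ± 0.13 with animal 39 and 0.39 without it. Mrps18a ranged from 66.2 to 83.6 CPM in CoCM against 52.3 to 64.6 CPM in Ctrl, with a log2 fold change of 0.30 ± 0.15. Mrpl57, which overlaps Ska3, had one of 0.52 ± 0.16, and Mrpl4 one of 0.22 ± 0.15. Of the 11 genes with exactly 5 animals above, animal 40 was the exception in 10. The score of the list, the mean of its members' log2 CPM minus the Ctrl mean, was 0.21 to 0.50 in the 5 other animals and 0.057 in animal 40, where Ctrl ranged from −0.13 to 0.21. The median was 0.20 without animal 39, and 6 genes then had an unadjusted p under 0.05 (5.35% of all genes were higher), 5 of them among the 12.

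The respiratory chain lists had higher medians that rested more on animal 39, and few of their genes had a small p-value. An unadjusted p under 0.05 was found in 2 of 35 genes of complex I, 1 of 24 of complexes II to IV and 0 of 16 of ATP synthase, against 5.96% of all genes, and in 0 genes of the 3 lists without animal 39. All 35 genes of complex I had a positive log2 fold change, with a median of 0.35 that was 0.20 without animal 39. All 6 animals lay above the range in 2 of them and at least 5 in 6, against 0.853% and 3.57% of all genes. At least 5 animals lay above it in 0 genes of complexes II to IV and 1 of ATP synthase. Ndufs7 measured 101, 108 and 166 CPM in CoCM (lowest, median and highest) and 84.5, 93.4 and 95.95 CPM in Ctrl. Animal 39 stood far above the other 5, which lay just over the controls, and the log2 fold change was 0.35 ± 0.21 with it and 0.22 without it. Ndufb7 had 0.37 ± 0.19 and 0.28. Complexes II to IV had a median of 0.31 and 0.18, and ATP synthase one of 0.33 and 0.19. In complex I the score was 0.89 in animal 39, 0.18 to 0.35 in animals 26, 27, 34 and 35, and −0.019 in animal 40, where Ctrl ranged from −0.23 to 0.21. Prdx5, a peroxiredoxin of mitochondria and peroxisomes that overlaps Trmt112, lay above the range in all 6 animals, with 195 to 339 CPM in CoCM against 159 to 194 CPM in Ctrl. Its log2 fold change was 0.36 ± 0.23, and 0.22 without animal 39.

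The lists of fuel use had medians near 0 without animal 39. The citrate cycle list had a median log2 fold change of 0.17 and fatty acid oxidation one of 0.15, and without animal 39 both medians were 0.01. Glycolysis and gluconeogenesis had 0.12 and 0.024. No gene of the 3 lists had 5 or more animals above the range, and 1, Acly, which makes cytosolic acetyl-CoA, had 5 below it. The scores of the citrate cycle were from −0.22 to 0.21 in the 5 other animals, within the Ctrl range of −0.39 to 0.33, and 0.82 in animal 39. Cytosolic ribosomal proteins went the other way, with a median of 0.15 and 0.24 without animal 39, the lowest of the 12 animals at a score of −0.43. After a trend with transcript length was removed, as described with the methods, their median was −0.032, that of mitochondrial ribosomal proteins 0.14, that of complex I 0.18, that of complexes II to IV 0.15 and that of ATP synthase 0.16.

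The scores of integrins and laminins and of focal adhesion lay below the Ctrl range in 5 of 6 animals, and those of collagens in 4, with animal 40 inside it each time. Collagens had a median log2 fold change of −0.50 over 18 genes, and of −0.36 without animal 39. No collagen had all 6 animals below the range, and Col5a1 had 5, with 8.19 to 70.98 CPM in CoCM against 40.8 to 87.1 CPM in Ctrl (log2 fold change −0.82 ± 0.42). The collagen score was −2.21 in animal 39, from −0.60 to −0.33 in animals 26, 27, 34 and 35 and 0.32 in animal 40, where Ctrl ranged from −0.38 to 0.43. All 23 integrin and laminin genes had a negative log2 fold change, with a median of −0.26, of −0.18 without animal 39 and of −0.10 with the length trend removed. An unadjusted p under 0.05 was found in 4 of them, and in 3 without animal 39, where 5.96% and 6.6% of all genes were lower at that threshold. Lamc1, a laminin chain of basement membranes, ranged from 101 to 187 CPM in CoCM against 157 to 223 CPM in Ctrl and had a log2 fold change of −0.39 ± 0.16. Of 38 focal adhesion and actin linker genes 5 lay below the range in 5 animals (3.01% of all genes do so), and animal 40 was the exception in each. These were Actn1, Cavin1, Rock2, Vcl and Rock1, with log2 fold changes from −0.48 ± 0.31 to −0.23 ± 0.10. The median of the list was −0.19 and −0.17 without animal 39. With and without that animal, 10 and 12 genes had an unadjusted p under 0.05 and a negative sign, against 5.96% and 6.6% of all genes.

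The scores of TGF-beta, Wnt and JAK-STAT signalling also lay below the Ctrl range in all animals but number 40. Of 41 genes of TGF-beta signalling 6 lay below the range in 5 animals, against 3.01% of all genes. At an unadjusted p under 0.05 there were 10 lower, and 7 without animal 39, against 5.96% and 6.6% of all genes. Tgfbr2, the type II receptor, measured 36.8, 47.8 and 80.7 CPM in CoCM (lowest, median and highest) and 68.5, 96.8 and 122 CPM in Ctrl. Animal 40 was the 1 treated animal inside the control range, and the log2 fold change was −0.88 ± 0.27 with animal 39 and −0.81 without it (adjusted p = 0.298 with it, edgeR with Benjamini-Hochberg adjustment). Tgfbr1, the type I receptor, had −0.33 ± 0.13 and Smad3, the transcription factor downstream of them, −0.27 ± 0.14. Smurf2, a ubiquitin ligase that limits the pathway, had −0.23 ± 0.075. The median of the list was −0.25 and −0.19 without animal 39, and its score was from −0.35 to −0.28 in animals 26, 27, 34 and 35, −0.78 in animal 39 and 0.036 in animal 40, where Ctrl ranged from −0.19 to 0.16.

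In JAK-STAT signalling 6 of 37 genes lay below the range in 5 animals (3.01% of all genes), and animal 40 was the exception in all 6. At an unadjusted p under 0.05 there were 4 lower, and 2 without animal 39, the latter a smaller share than the 6.6% of all genes. Jak1, a kinase of cytokine receptors, ranged from 157 to 211 CPM in CoCM against 197 to 236 CPM in Ctrl and had a log2 fold change of −0.33 ± 0.11. Jak2, its relative, had −0.37 ± 0.18, Stat6, a target of interleukin-4 receptors, −0.42 ± 0.20, and Ifnar1, a receptor of type I interferons, −0.32 ± 0.14. The median of the list was −0.18, and −0.094 without animal 39. Wnt signalling had a median of −0.13 over 45 genes, and −0.19 without animal 39. At an unadjusted p under 0.05, 9 and 10 of its genes were lower, against 5.96% and 6.6% of all genes. Ror1, a receptor of non-canonical Wnts, had −0.92 ± 0.30 at levels of 1.22 to 3.64 CPM in CoCM against 2.72 to 5.09 CPM in Ctrl. PI3K-Akt and mTOR had −0.17 and −0.21, and −0.076 with the length trend removed. In it Rps6kb2, a kinase downstream of mTOR, lay above the range in all but animal 35 (0.37 ± 0.093). NF-kappa B and TNF signalling had −0.13 and −0.027, and apoptosis −0.086 and −0.016, so both medians lay near 0 without animal 39. The apoptosis score still lay below the Ctrl range in 4 CoCM animals, and that of NF-kappa B and TNF signalling in 1. Of 36 apoptosis genes, 4 lay below the range in at least 5 animals and 1 above it, against 3.01% and 3.57% of all genes. Over all lists, the members with exactly 5 animals beyond the range had animal 40 as the exception in 20 genes above and 33 below, and animal 39 in 3 genes below.

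**Figure D4:**
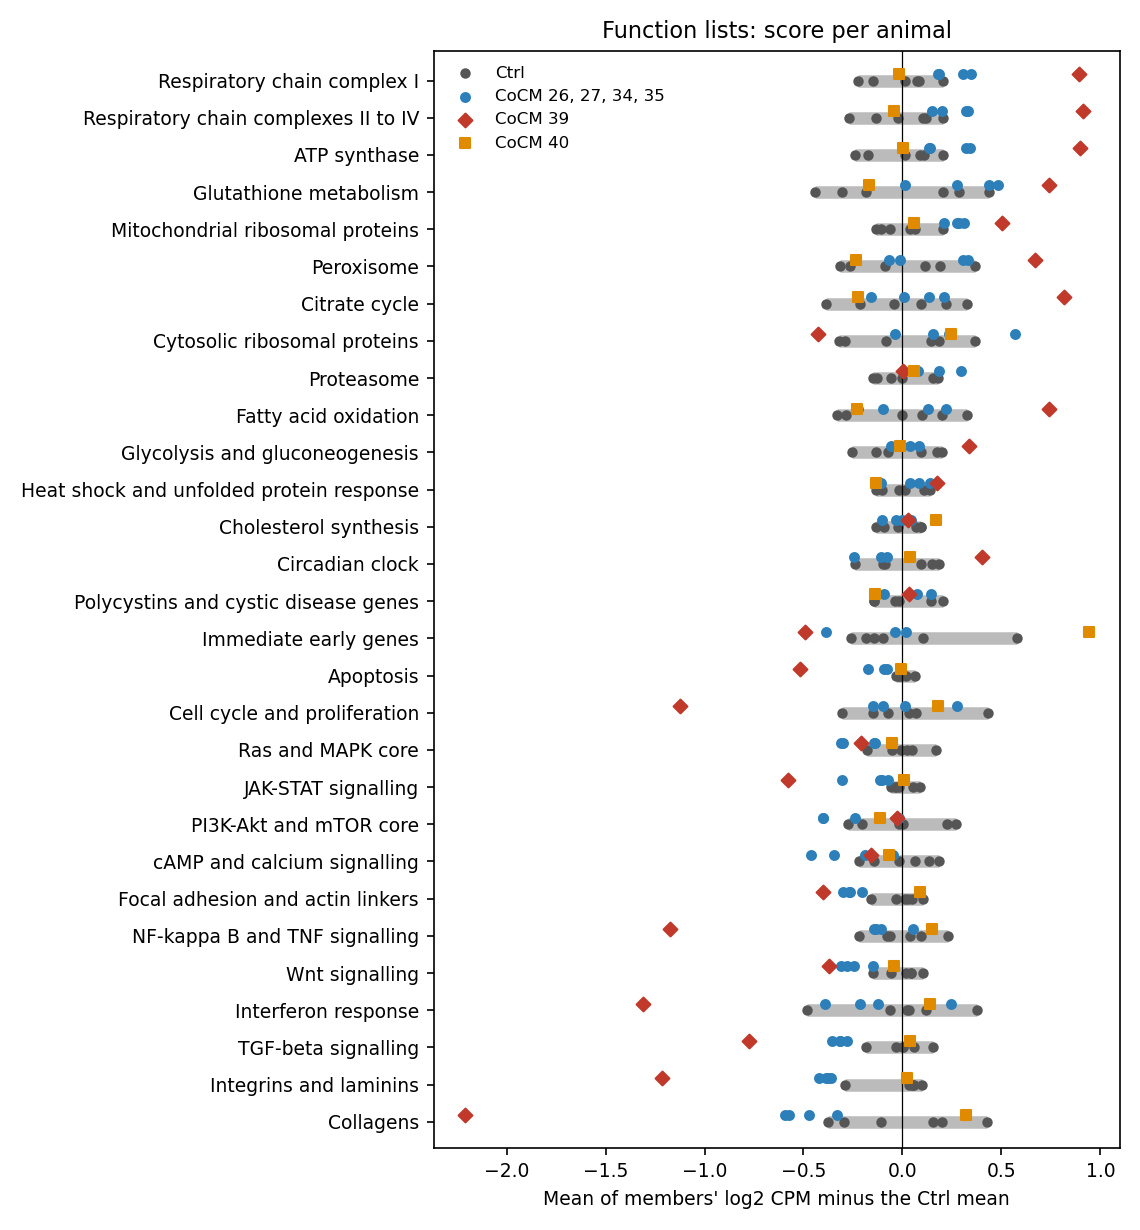
Score of each of 29 function lists per animal, the mean of the members' log2 CPM minus the Ctrl mean (horizontal axis), with lists in order of the CoCM mean. Grey points and bars are the 6 Ctrl animals and their range, blue points CoCM 26, 27, 34 and 35, the red diamond CoCM 39 and the orange square CoCM 40; CoCM 39 was the furthest from 0 for collagens (−2.21) and complex I (0.89), and CoCM 40 lay within or close to the Ctrl range for most lists except immediate early genes (0.94).

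Several lists of cell type markers moved with these scores in animal 39. Its score was −3.61 for T and B lymphocytes, −2.93 for macrophages, −2.82 for fibroblasts and pericytes and −2.33 for injured tubule, and the Ctrl minima were −0.74, −0.75, −0.75 and −0.39. In animal 39 Havcr1 (kidney injury molecule 1) measured 4.32 CPM and Spp1 (osteopontin) 370.1 CPM, the lowest of the 12 animals, where the highest were 273 and 13004 CPM. It was the highest in Slc34a1, the phosphate carrier of the proximal tubule, with 5175 CPM, and in Umod, with 6702 CPM. In animal 40 the scores were 0.54 for lymphocytes, 0.50 for macrophages, 0.59 for fibroblasts and 0.19 for injured tubule, all inside the Ctrl range. Animals 26, 27, 34 and 35 scored from −0.98 to 0.013 for fibroblasts and from −0.86 to 0.28 for macrophages, where Ctrl ranged from −0.75 to 0.81 and from −0.75 to 0.63. The part of these cell types in the lower collagen, adhesion and signalling values was not tested.

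**Figure D5:**
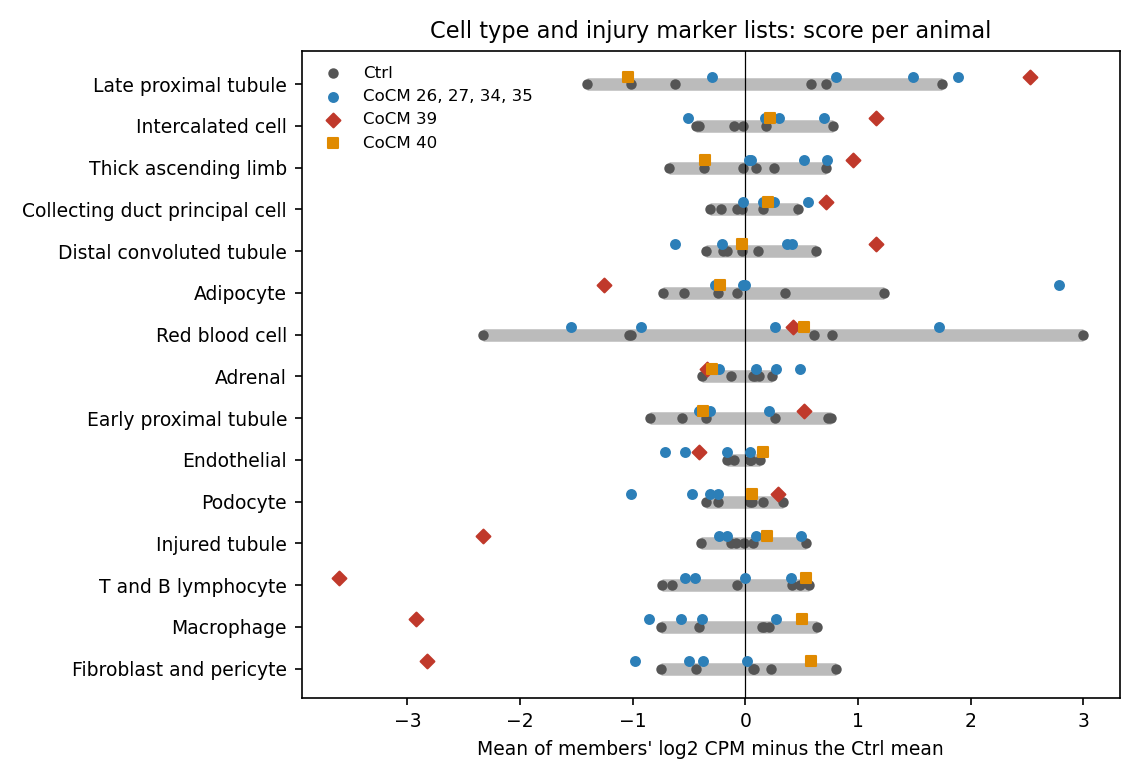
Score of each of 15 cell type and injury marker lists per animal (horizontal axis, the mean of the markers' log2 CPM minus the Ctrl mean), with symbols as in the plot of function lists. CoCM 39 lay at −3.61 for T and B lymphocytes and −2.33 for injured tubule, below every Ctrl animal, and the other CoCM animals overlapped Ctrl in both lists.

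The median log2 fold change of the 15 macrophage markers was −0.38, and −0.15 without animal 39. That of the fibroblast markers was −0.49 and −0.31, that of T and B lymphocytes −0.13 and 0.11, and that of injured tubule −0.13 and 0.050. No marker of these 4 lists had 5 animals beyond the range. Late proximal tubule had 0.86 and 0.57, with Ctrl animals spread from −1.41 to 1.74 in score. Endothelial markers had −0.27 and −0.21, and their score lay below the Ctrl range in 4 CoCM animals and above it in 1. The podocyte score lay below the Ctrl range in 2 CoCM animals and above it in 0. Cdh5, the cadherin of endothelial junctions, lay below the range in all but animal 40, with 15.2 to 35.4 CPM in CoCM against 30.3 to 46.9 CPM in Ctrl and a log2 fold change of −0.66 ± 0.25, and Tek, the angiopoietin receptor, likewise with −0.44 ± 0.14. Of 13 early proximal tubule markers 5 had a positive and 8 a negative log2 fold change (median −0.24, and −0.41 without animal 39), and the list's score lay within Ctrl in all 6 animals. The 1 marker below the range in 5 animals was Slc5a12, a lactate carrier, with 20.2 to 74.8 CPM in CoCM against 67.96 to 143 CPM in Ctrl and a log2 fold change of −1.07 ± 0.36.

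Compared with the kidneys of the 12 rats given ABCB5+ cells, no gene passed the test (0.0%, edgeR with Benjamini-Hochberg adjustment), and 894 had an unadjusted p under 0.05. Ovca2 was 0.42 ± 0.076 higher in log2 terms in CoCM than in the cell groups (adjusted p = 0.168). For Pkd2 that difference was −0.14 ± 0.085 and for Nr3c1 −0.20 ± 0.076. CoCM 39 was not alone in its profile within the series. Animals ipABCB5 38, ivABCB5 36 and ivABCB5 37 scored −1.98, −1.47 and −1.43 for collagens, where CoCM 39 had −2.21. For complex I they scored 1.06, 0.69 and 0.98, where CoCM 39 had 0.89. What these animals had in common was not tested. 

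Transcript length went with the direction of the separated genes. The relative length of transcripts, taken from the ratio of counts to TPM, had a median of 0.70 in the 109 genes above the range, 1.41 in the 67 below and 1.01 in all genes. The slope of log2 CPM on log2 length, with the mean over all animals as reference, was −0.045 ± 0.032 (SD, n = 6) in CoCM and 0.028 ± 0.067 in Ctrl (exact permutation p = 0.0476, two-sided). With this trend removed 81 genes lay above and 59 below the range in all 6 animals, among them 48 of the 109 and 36 of the 67. In the deposited TPM values, which are not scaled between libraries beyond their total, the numbers were 23 above and 124 below, a share above of 15.6% against 61.9%, and with TMM scaling of the TPM values, added after the data were seen, they were 98 and 78 (55.7%). With counts thinned to the smallest library they were 70 and 72 (49.3%). Animal 40 remained the most frequent exception under every scaling, in 59.6% to 67.5% of the genes with exactly 5 animals beyond the range.

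The promoters of the separated genes were set beside those of all genes tested. RefSeq gave a promoter for 91 of the 109 genes, 54 of the 67 and 10323 of the 12778 tested. The median GC content was 59.3% above the range, 65.7% below it and 60.3% over all. A GC box, searched on both strands, was found in 54.9%, 70.4% and 59.8% of them, and a CCAAT box in 38.5%, 48.1% and 37.4%. A TATA box (TATAAA on either strand) was found in 5.49%, 3.70% and 7.49%. These shares describe the letters in the window and were not tested.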

How the data were processed

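For each animal the authors deposited estimated counts without normalization, which were rounded to whole numbers here. The authors also deposited TPM values, corrected for the length of the transcripts and the size of the library, which served for relative transcript length and as an alternative. The submitters' processing notes list Trim Galore 0.6.4, kallisto 0.4.6 and the build rn6, while the study's methods name a human gene model package and DESeq2; the strand setting was not given in the sources used here. Groups came from the labels. Symbols came from RefSeq GRCr8 for 17179 of 17334 identifiers.

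Genes were filtered with filterByExpr by group. Libraries were scaled by TMM, and all 24 samples were fitted in edgeR 4.0.16 (R 4.3.3) with the quasi-likelihood F-test of CoCM against Ctrl and Benjamini-Hochberg adjustment over 12778 genes. A gene was beyond the control range in an animal when its log2 CPM (prior count 2) exceeded the highest or lay under the lowest Ctrl value. List scores used the same log2 CPM. The length trend was removed by fitting log2 CPM on log2 relative length in each library. Library measures were tested by two-sided exact permutation of the 12 animals, with 924 splits and a smallest p of 0.00216. Alternatives used DESeq2 1.42.0, limma 3.58.1 (voom with quality weights), median-ratio size factors, 2 other filters, counts thinned to 9304601 per library, the fit of 12 samples, the fit without 4 libraries that stood apart, and leaving out each animal.

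Named genes had a RefSeq symbol and an average log2 CPM above 1. They were the 10 per direction with the smallest p among those with all 6 CoCM animals beyond the range, up to 3 such members of each list, the 4 per direction for which animal 39 was the exception, and the 5 per direction whose fold change moved most without it. Other list members with 5 animals beyond the range were named after their values were seen. A few genes that these rules name are not reported here. Members, lists and rules were chosen with earlier results of these data known.

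On simulated counts with 200 genes changed 4-fold between CoCM and Ctrl, edgeR recovered 89.5%, and unchanged genes made up 3.76% of the calls (12718 genes tested). With no change simulated it made 0 calls over 12736 genes. The simulated 4-fold change was larger than any fitted for the genes beyond the control range in every CoCM animal. The median log2 fold changes of those genes were 0.32 above the range and −0.33 below it. Recovery of changes as small as these was not tested. The labels give animals as separate samples. No pair of libraries of a group agreed within counting noise (smallest chi-square per degree of freedom 16.8). Counts carry no molecular identifiers, so the floor of 3 counts covers counting error only.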

Additional observations from a re-analysis of the deposited data

Results flagged for a closer look

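Values that stood apart within a group of 6 were searched by Dixon's gap test over library measures and list scores. Of 134 sets of 6 values, 14 held such a value, where chance sets apart about 1 in 20, or 6.7. CoCM 39 accounted for 10 of them. It had 13629 genes detected, where the other CoCM animals had 13961 to 14106. Its list scores were 0.897 for ATP synthase, 0.334 for glycolysis and gluconeogenesis, −2.21 for collagens, −1.21 for integrins and laminins, −1.17 for NF-kappa B and TNF signalling, −0.515 for apoptosis, −1.13 for cell cycle and proliferation, −2.33 for injured tubule and −3.61 for T and B lymphocytes. The other CoCM animals had collagen scores from −0.595 to 0.322 and lymphocyte scores from −0.534 to 0.539.

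CoCM 40 had a score of 0.940 for immediate early genes, which many stimuli induce rapidly, and the other CoCM animals lay between −0.491 and 0.0157. CoCM 34 had a score of 2.79 for adipocyte markers, where the highest of the other CoCM animals had −0.00164. In Ctrl, animal 23 had the lowest total count, 10405757, and animal 18 the lowest score of integrins and laminins, −0.289. What set these libraries apart was not tested.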

How the results depend on the processing

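The edgeR fit called 1 gene, Ovca2. The call was lost (0 genes) in the fit of the 12 samples (adjusted p = 0.136) and without CoCM 39, ipABCB5 38, ivABCB5 36 and ivABCB5 37 (0.0992), and it was kept under the other scalings and filters. DESeq2 called 78 genes (66 higher, 1 adjusted p missing) and limma voom with quality weights 183 (130 higher). Leaving out each animal gave 0 to 30 calls. There were 0 calls without CoCM 26, 27 or 39 or without Ctrl 12, 18, 22 or 24, with adjusted p for Ovca2 from 0.0734 to 0.138, and 30 without Ctrl 23. Genes with all 6 CoCM animals above the range numbered 70 with thinned counts and 23 in TPM, and 129 in TPM for at least 5. Those below numbered 124 and 640 in TPM. Leaving out each animal gave 117 to 328 above and 72 to 283 below for all animals, and 510 to 863 above and 420 to 778 below for all but at most 1. The highest values came without CoCM 40. Counts also exceeded 1.5 times those with all animals without Ctrl 23 (209 above, and 695 for all but at most 1), Ctrl 18 (200 below, and 698), CoCM 34 (103 below, and 595) and CoCM 35 (693 above for all but at most 1). The cause was not tested.

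Sphkap turned to −0.93 without the 4 libraries, to −0.47 with limma and from 1.11 to −0.91 on leaving out single animals. Cd79b turned to −0.043 with the length trend removed and to −0.028 with thinned counts. Leaving out single animals gave −0.32 to 0.28 for Cd79b, −0.13 to 0.38 for Ccl19 and −0.0060 to 0.56 for Siglec10. The other named genes kept their direction in these settings, and the medians of lists moved by less than the spread between animals except red blood cell markers without Ctrl 1 (0.59). No paired analysis was possible because no animal number occurs in both groups. Depth limits the genes near the floor of 3 counts, which is 0.307 CPM in the smallest library.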

Other observations

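Several genes with large fold changes and all 6 CoCM animals beyond the range were expressed near the lower limit of the test, and are named here after their values were seen. Above the range, Bnc1, a zinc finger protein of keratinocytes and germ cells, had a log2 fold change of 1.05 ± 0.38, Sycp1, a protein of the synaptonemal complex of meiotic cells, 1.08 ± 0.31, and Chst4, a sulfotransferase, 1.17 ± 0.27. Sycp1 measured from 2.05 to 3.81 CPM in CoCM and from 0.848 to 1.95 CPM in Ctrl. Below the range, Foxred2, an oxidoreductase of the endoplasmic reticulum, had −1.25 ± 0.41 and Apba1, an adaptor protein of neurons, −1.13 ± 0.38. Foxred2 measured from 0.381 to 1.17 CPM in CoCM and from 1.39 to 2.52 CPM in Ctrl. The adjusted p-values of these 5 genes lay between 0.188 and 0.353 (edgeR with Benjamini-Hochberg adjustment).

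The genes above the range were spread unevenly over the chromosomes of the RefSeq GRCr8 annotation. Chromosome 16 held 12 of its 358 tested genes above the range (3.35%, against 0.853% over all) and 0 below, and chromosome 12 held 10 of 418 (2.39%) and 0. On chromosome 16 Nr2f6, Slc5a5, Kxd1, Fkbp8, Klhl26, Tmem161a and Nr2c2ap lay between places 96 and 157 in the order of the 358 genes, and Kxd1 and Fkbp8 were neighbours. In the annotation 45 of the 108 genes above the range with a symbol, and 27 of the 67 below, overlap another gene. These positions were not tested.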
